A study of Mus musculus with 24 samples.

Results

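Neurons that project through the corpus callosum were compared with corticothalamic neurons from the mouse cortex at postnatal day 1 (P1), as the log2 difference between their RNA levels over every gene that reached 1 FPKM in at least 1 of the 2 cell types. FPKM, the unit read into the table, is a fragment count scaled for transcript length and library size. Of 32310 entries, 13295 met that rule. The entry just inside it was Rimbp3, at 1.00 FPKM in the higher column, and the entry just outside was XLOC_004265, at 0.9995 FPKM. The cells came from CD1 mice, an outbred strain, and the labels name no allele, transgene or treatment for any group. They were sorted by FACS as callosal, corticothalamic or subcerebral neurons at embryonic days 15, 16 and 18 (E15, E16, E18) and at P1. Each of the 12 groups had 2 libraries, 24 in all, of which 4 belong to the comparison made here. The sources used here do not give the sort markers, the sex of the animals, the number pooled, or whether both libraries of 1 group had different animals behind them.

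Callosal projection neurons send axons across the corpus callosum to the opposite hemisphere and lie mostly in the upper cortical layers, with some in the deep layers. Corticothalamic projection neurons lie mostly in layer 6 and send axons to the thalamus, to which they give feedback. Around birth both are extending axons, making first synapses and taking on the gene expression of their layer. The homeobox factors Cux1 and Cux2 are textbook markers of upper-layer callosal neurons. Tle4, Foxp2, Tbr1 and Sox5 are textbook markers of layer 6 neurons.

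The table holds 1 value per group, which the authors made from its 2 libraries, so there is no spread between libraries, no test and no standard error for any difference at P1. A difference is called here where it is at least 2-fold, that is, 1 or more in size on the log2(FPKM + 1) scale, which understates the change of low genes. The values at E15, E16 and E18 come from other libraries and are given beside P1 as the only check on how steady a difference was. The P1 columns summed to 414861 FPKM in callosal and 406950 FPKM in corticothalamic neurons, with 12718 and 12755 entries at 1 FPKM or more. The number of reads behind a value is unknown, and so is its counting error. In sorted bulk RNA, fewer cells of a type and less RNA per cell cannot be told apart.

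The 4 genes used to check the labels stood where the labels put them. Cux2 was 104 FPKM in callosal, 3.86 FPKM in corticothalamic and 1.61 FPKM in subcerebral neurons at P1. Hspb3, a small heat shock protein gene, was 34.2 FPKM in callosal, 0.501 FPKM in corticothalamic and 2.60 FPKM in subcerebral neurons. Tle4, a Groucho-family corepressor, was 198 FPKM in corticothalamic, 1.87 FPKM in callosal and 11.3 FPKM in subcerebral neurons. The synaptotagmin gene Syt6 was 90.9 FPKM in corticothalamic, 0.945 FPKM in callosal and 1.20 FPKM in subcerebral neurons. Each marker was thus highest in the cell type it was chosen for, and low in both of the others. If the sort used the products of Tle4 or Bcl11b, the differences of these genes follow from it.

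At P1 the comparison was symmetric. Of the 13295 genes, 575 (4.32%) were at least 2-fold higher in callosal neurons and 576 (4.33%) at least 2-fold higher in corticothalamic neurons, 8.66% in either direction. At least 4-fold differences numbered 145 and 150, and at least 8-fold differences 51 and 54. The median difference over all 13295 genes was -0.01, and the 5th and 95th percentiles were -0.90 and 0.92. These shares are the background against which the gene lists below are read. Among the called entries, 57 callosal and 48 corticothalamic ones were XLOC_ loci, known only by an assembly identifier. XLOC_004056 was the highest called entry of all in callosal neurons, at 626 FPKM against 27.1 FPKM in corticothalamic and 100 FPKM in subcerebral neurons; it was picked out after its values were seen.

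**Figure D1:**
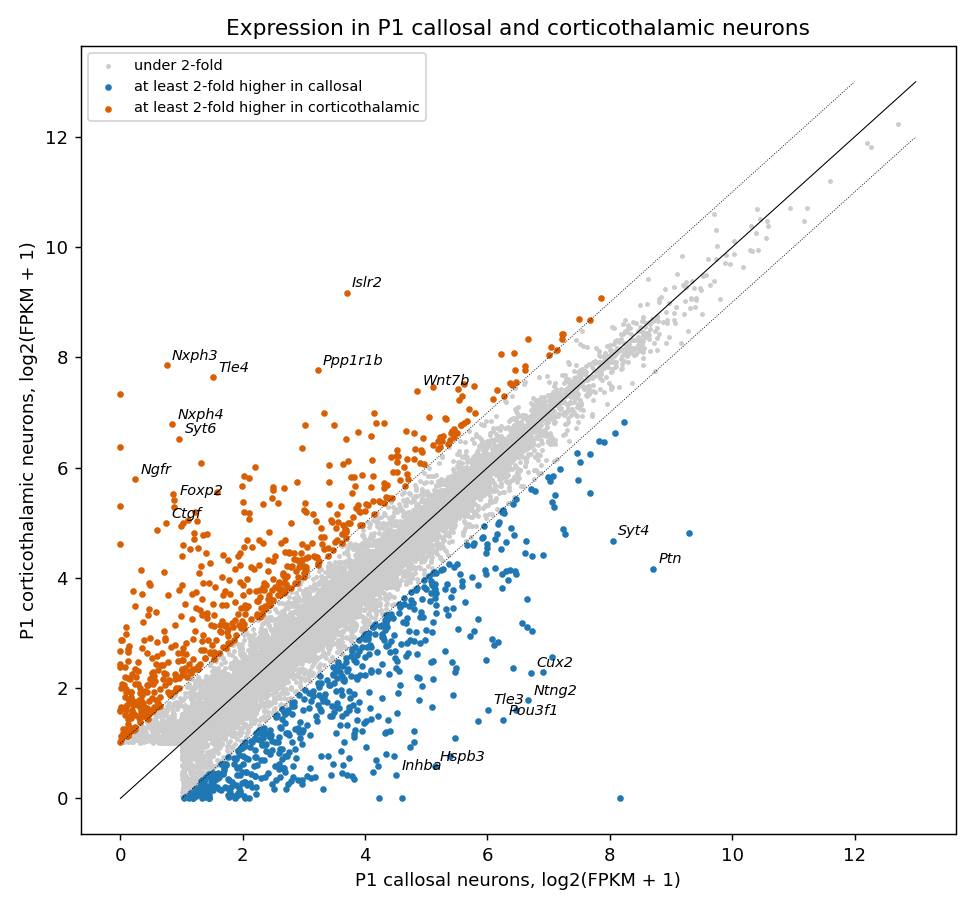
Expression at P1 of the 13295 entries with 1 FPKM or more in either cell type, callosal neurons on the x axis and corticothalamic neurons on the y axis, both as log2(FPKM + 1). Each point is 1 entry, the solid line marks equal values and the dotted lines 2-fold differences. Nxph3, Tle4, Syt6 and Islr2 lie far above the lines, and Ptn, Ntng2, Hspb3 and Inhba far below.

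The genes highest in callosal relative to corticothalamic neurons were led by an axonal adhesion gene and by transcription factors. Ntng2, which encodes netrin-G2, a membrane-anchored ligand for a postsynaptic partner, was 100.5 FPKM in callosal, 2.43 FPKM in corticothalamic and 1.38 FPKM in subcerebral neurons, a log2 difference of 4.89 between the first pair. The POU-domain factor gene Pou3f1 was 75.5 FPKM in callosal and 1.67 FPKM in corticothalamic neurons (4.84), but 64.9 FPKM in subcerebral neurons. Lhx2, a LIM-homeobox factor gene, was 119 against 3.90 FPKM (4.62) and stood at 2.97 FPKM in subcerebral neurons. Pou3f1 was therefore low in corticothalamic neurons alone among the 3 cell types at P1, whereas Ntng2 and Lhx2 were high in callosal neurons alone.

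The other leading callosal genes included secreted proteins and a membrane adhesion molecule. Ptn, which encodes the growth factor pleiotrophin, had 416 FPKM in callosal and 16.9 FPKM in corticothalamic neurons, a difference of 4.54. Fam19a2, a chemokine-like secreted protein gene, had 87.0 against 2.04 FPKM (4.85), and Pvrl3, which encodes the cell adhesion molecule nectin-3, 56.7 against 1.66 FPKM (4.44). Inhba, the activin beta A subunit gene, had 21.6 against 0.335 FPKM (4.08). Ptn was the most abundant of them, and Inhba the closest to the floor outside callosal neurons. Gucy1a3, which encodes a subunit of soluble guanylate cyclase (132 against 4.94 FPKM), the corepressor gene Tle3 (63.6 against 2.05 FPKM) and 3110047P20Rik (40.7 against 0.704 FPKM) completed the leading genes with a value in both cell types.

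In the other direction Nxph3 led, followed among genes with a value in both cell types by the corepressor gene Tle4 (-6.12). Nxph3, which encodes neurexophilin 3, a secreted ligand of alpha-neurexins, was 231 FPKM in corticothalamic, 0.687 FPKM in callosal and 14 FPKM in subcerebral neurons, a log2 difference of -7.10. Its family member Nxph4 was 109 FPKM in corticothalamic and 0.803 FPKM in callosal neurons (-5.94). Ngfr, the p75 neurotrophin receptor gene, was 54.5 FPKM in corticothalamic neurons, 0.181 FPKM in callosal and 0.230 FPKM in subcerebral neurons (-5.55). For Ngfr, as for Syt6, the subcerebral level lay near the callosal one.

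Islr2, a leucine-rich membrane protein gene of growing axons, showed another pattern, with 575 FPKM in corticothalamic and 397 FPKM in subcerebral neurons against 12 FPKM in callosal neurons (-5.47). Kif26a, an atypical kinesin gene, was likewise 45.2 FPKM in corticothalamic and 63.3 FPKM in subcerebral neurons against 0.805 FPKM in callosal neurons (-4.68). Both genes were thus high in corticothalamic and subcerebral neurons, whose axons leave the cortex, and low in callosal neurons. The kainate receptor gene Grik3 (66.8 against 1.48 FPKM), Ppp1r1b, which encodes the dopamine-regulated phosphatase inhibitor DARPP-32 (217 against 8.33 FPKM), Foxp2 (41.5 against 0.836 FPKM) and the GATA cofactor gene Zfpm2 (38.2 against 0.828 FPKM) completed the leading genes with a value in both cell types.

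Some leading entries rest on a value of 0, which can be a failed estimate, so that no fold is given. Mir677 was listed at 285 FPKM in callosal and at 0 in corticothalamic neurons at P1, but at 118 FPKM in corticothalamic and 0 in callosal neurons at E15. Mir1966 was at 161 FPKM in corticothalamic neurons and listed at 0 in callosal neurons, and Snora34 at 38.4 FPKM and 0. The same holds for Mir760 (23.4 FPKM in callosal neurons) and Snora7a (17.8 FPKM in callosal neurons), and in corticothalamic neurons for AK178082 (81.9 FPKM) and Mir1937b-2 (23.5 FPKM). Of the 1151 called entries, 22 were listed at 0 in 1 of the P1 columns. MicroRNA and small nucleolar RNA entries gave 7 callosal and 5 corticothalamic calls.

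The sequences just upstream of the genes that lead each direction are shown because these genes differ most in RNA level between the cell types. They are the 2 genes of each direction with the largest difference that had a single promoter in the RefSeq table of GRCm38.p6, from 250 to 51 bases before the annotated start, 5′ to 3′ on the gene's strand. Capitals mark CpG dinucleotides, the sites of DNA methylation that cluster in CpG islands. The expression values were made on mm9, and the coordinates are those of GRCm38.p6. The first lies at chr2:29248150-29248349 (minus strand), the second at chr13:113663727-113663926 (minus), the third at chr11:95587749-95587948 (minus) and the last at chr4:125490446-125490645 (plus).
Ntng2: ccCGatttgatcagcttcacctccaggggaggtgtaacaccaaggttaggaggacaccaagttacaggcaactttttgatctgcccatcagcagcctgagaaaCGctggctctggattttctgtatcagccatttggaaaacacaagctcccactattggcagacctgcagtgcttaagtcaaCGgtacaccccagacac
Hspb3: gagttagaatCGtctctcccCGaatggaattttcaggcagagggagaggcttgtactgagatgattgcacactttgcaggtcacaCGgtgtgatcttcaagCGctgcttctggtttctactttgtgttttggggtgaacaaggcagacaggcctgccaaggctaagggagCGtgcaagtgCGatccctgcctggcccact
Ngfr: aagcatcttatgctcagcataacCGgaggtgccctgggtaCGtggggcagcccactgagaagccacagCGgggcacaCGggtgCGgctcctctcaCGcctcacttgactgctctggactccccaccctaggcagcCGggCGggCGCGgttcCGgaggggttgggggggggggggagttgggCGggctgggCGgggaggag
Grik3: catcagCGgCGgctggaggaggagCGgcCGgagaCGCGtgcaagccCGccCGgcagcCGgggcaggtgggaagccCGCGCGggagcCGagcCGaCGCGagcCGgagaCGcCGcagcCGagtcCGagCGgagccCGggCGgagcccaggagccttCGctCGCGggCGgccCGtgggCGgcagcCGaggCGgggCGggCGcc

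Within these 200 bases Ntng2 and Hspb3, the callosal pair, held 3 and 6 CpG dinucleotides, while Ngfr and Grik3, the corticothalamic pair, held 13 and 34. That contrast did not extend to the called genes at large. A promoter was found for 376 of the 575 callosal genes, with a median of 12 CpG dinucleotides (quartiles 6 and 18). The 375 of 576 corticothalamic genes with a promoter had a median of 10 (quartiles 5 and 15.8). Over the 9505 genes of the comparison with a promoter the median was 12 (quartiles 7 and 17). These are descriptions of the annotated sequence and carry no measurement of methylation.

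Lists of neuron subtype genes had called shares far above the 8.66% of all genes. Like all lists here, they were drawn up with earlier results of these data known, so these shares describe the chosen genes. Of 26 callosal neuron genes, 25 passed the 1 FPKM rule, 18 were at least 2-fold higher in callosal neurons and 0 in corticothalamic neurons, with a median of 2.16 against -0.01 over all genes. Cux1 was 99.0 against 11.2 FPKM, and Mdga1, a GPI-anchored adhesion gene of migrating upper-layer neurons, 98.6 against 7.58 FPKM. Cux1 thus differed less (3.04) than its relative Cux2 (4.43). The lowest called members were Lpl, the lipoprotein lipase gene, with 145 against 61.6 FPKM (1.22), and Tmtc4, with 32.9 against 14.3 FPKM (1.15). The ephrin receptor gene Epha3, at 14.3 against 7.19 FPKM (0.91), missed the 2-fold line, as did Nnmt (0.94), Cited2 (0.40), Btg1 (0.33) and Gfra2 (0.14). The secreted Wnt modulator gene Dkk3 (-0.59) and Chn2 (-0.04) had negative differences.

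Of 21 corticothalamic neuron genes, 20 passed the 1 FPKM rule, 17 were at least 2-fold higher in corticothalamic neurons and 1 in callosal neurons, with a median of -3.87. Tbr1, a T-box factor gene, was 156 FPKM in corticothalamic and 47.2 FPKM in callosal neurons (-1.70), a smaller difference than that of Foxp2 (-4.53) or Sox5 (65.4 against 9.62 FPKM, -2.64). Wnt7b, a secreted Wnt ligand gene, was 168 FPKM in corticothalamic and 27.7 FPKM in callosal neurons (-2.56). Crym, a gene for a cytosolic protein that binds thyroid hormone, was 35.5 FPKM in corticothalamic neurons, 1.34 FPKM in callosal neurons and highest in subcerebral neurons at 149 FPKM. The member on the other side was the forkhead gene Foxp1, at 79.3 FPKM in callosal and 14.5 FPKM in corticothalamic neurons (2.37). The list had been drawn up with earlier results of these data known, so its direction is a description of the chosen genes.

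Genes usually linked to subcerebral neurons divided between the cell types. Of 18 that passed the 1 FPKM rule, 10 were at least 2-fold higher in corticothalamic and 5 in callosal neurons. Bcl11b, which encodes the zinc finger factor CTIP2, was 32.1 FPKM in corticothalamic, 1.16 FPKM in callosal and 104 FPKM in subcerebral neurons. Pcp4, a calmodulin-binding protein gene, was 56.3, 3.04 and 180 FPKM in the same order, and Fezf2, the zinc finger gene that specifies subcerebral fate, 65.8, 11.4 and 127 FPKM. All 3 thus had corticothalamic neurons between the other cell types. On the callosal side, Bhlhe22, a bHLH factor gene, was 71.2 FPKM in callosal, 6.18 FPKM in corticothalamic and 168 FPKM in subcerebral neurons, and Foxo1 3.91, 0.298 and 4.33 FPKM. Epha4, at 77.6 against 24.2 FPKM, was lowest in subcerebral neurons, at 18.6 FPKM.

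Genes of the subplate, a layer of early-born neurons beneath the cortical plate, stood on the corticothalamic side. Of 10 that passed the 1 FPKM rule, 9 were at least 2-fold higher in corticothalamic neurons and 0 in callosal neurons, with a median of -2.94. Their called share was 90%, beside 8.66% of all genes. The largest, Nxph4, is a member of the corticothalamic list too. Ctgf, a matricellular growth factor gene, was 30.9 FPKM in corticothalamic, 0.683 FPKM in callosal and 0.223 FPKM in subcerebral neurons. Cplx3, a complexin gene, was 7.58, 0.0619 and 0.251 FPKM, and Trh, the thyrotropin-releasing hormone gene, 13.6, 1.02 and 1.01 FPKM. All 3 were near the floor outside corticothalamic neurons. Tmem163 differed by -3.38 but was higher still in subcerebral neurons (33.1 FPKM against 22.0 FPKM). Nr4a2, an orphan nuclear receptor gene, went against the rest, at 30.2 FPKM in callosal and 14.7 FPKM in corticothalamic neurons (0.99). The 12 subplate genes summed to 243 FPKM in corticothalamic, 38.8 FPKM in callosal and 59.4 FPKM in subcerebral neurons at P1. At E18 the sums were 99.2 FPKM in corticothalamic and 43.7 FPKM in callosal neurons. Nxph4 alone made up 109 FPKM of the corticothalamic sum at P1 and 54.0 FPKM at E18. Nr4a2 made up 30.2 FPKM of the callosal sum at P1. The part of subplate cells in the corticothalamic results was not tested.

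**Figure D2:**
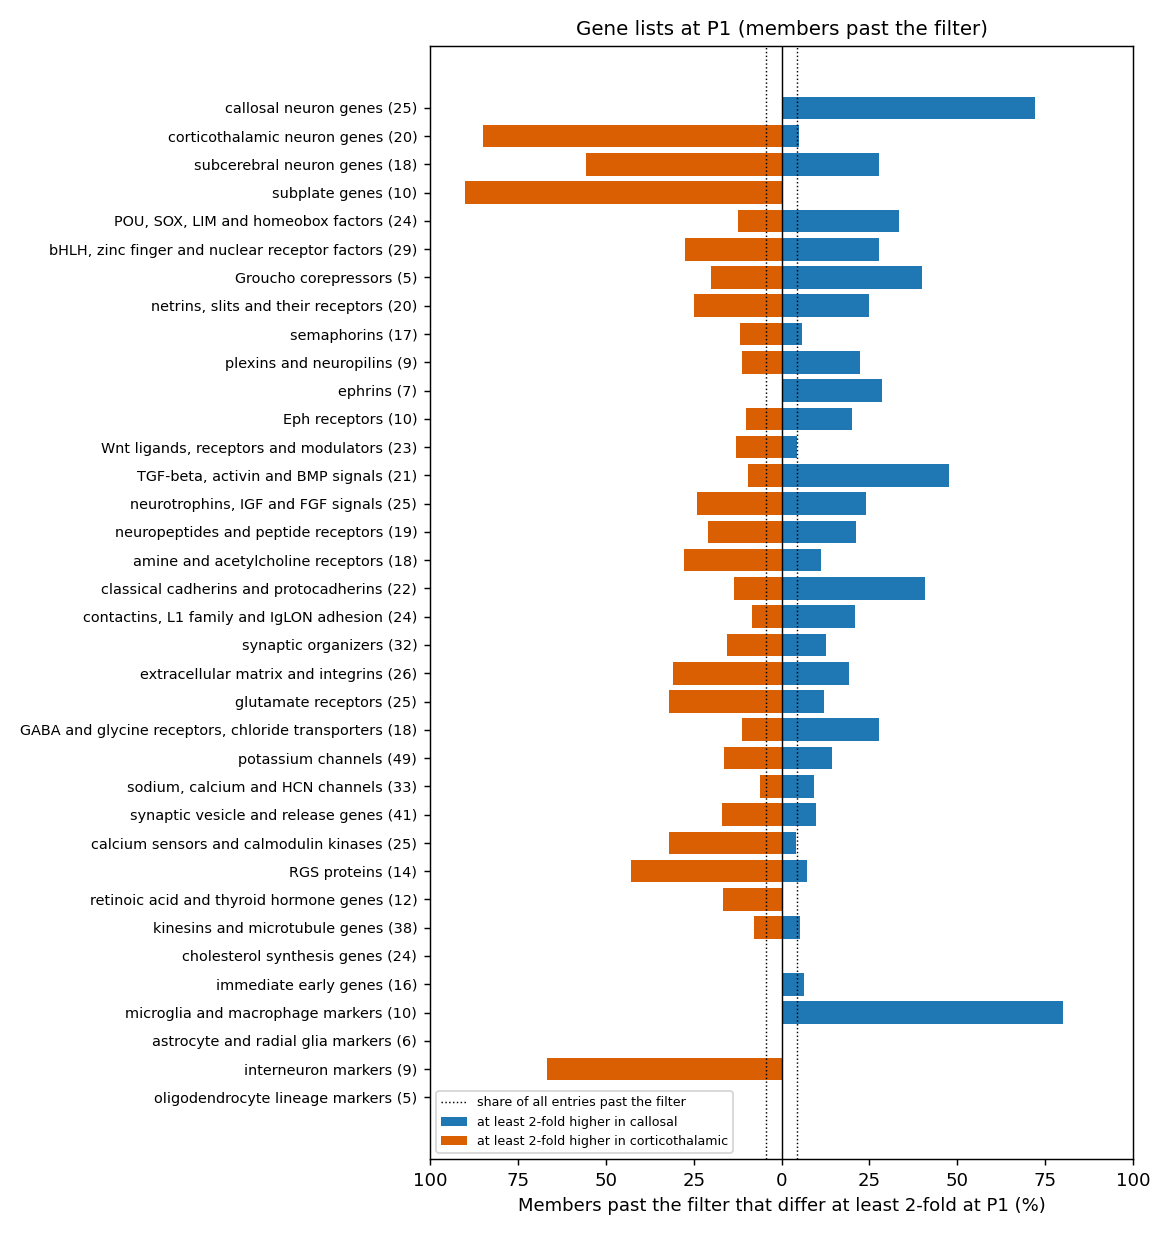
Share of the members past the 1 FPKM rule that differed at least 2-fold at P1, by gene list, with bars to the right for callosal and to the left for corticothalamic neurons and the number of members in brackets. Dotted lines mark the shares over all entries (4.32% and 4.33%). The callosal and subplate lists have a bar on 1 side alone and the corticothalamic list a small callosal one (Foxp1), while cholesterol synthesis genes have no bar.

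Transcription factor families differed on both sides. Among 24 POU, SOX, LIM and homeobox factors past the rule, 8 were at least 2-fold higher in callosal neurons and 3 in corticothalamic neurons. The called share was thus 45.8%, beside 8.66% of all genes. The class III POU genes of the list were all on the callosal side, Pou3f2 with 43.7 against 4.15 FPKM and Pou3f3 with 136 against 38.2 FPKM beside Pou3f1. The LIM-only gene Lmo4 was 105 against 20.1 FPKM (2.33), while Lmo3 was 79.6 against 40.1 FPKM (0.97) and missed the line. On the corticothalamic side Otx1, a homeobox gene of deep layers, was 27.6 against 4.40 FPKM and Meis2 52.5 against 9.62 FPKM.

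Among 29 bHLH, zinc finger and nuclear receptor factors past the rule, 8 were higher in each cell type (55.2% called, beside 8.66% of all genes). The nuclear factor I genes Nfia (49.4 against 4.63 FPKM, -3.16) and Nfib (175 against 33.4 FPKM, -2.35) and the teashirt gene Tshz3 (63.2 against 3.57 FPKM, -3.81) were higher in corticothalamic neurons. The repressor gene Bcl6 was 11.2 FPKM in callosal and 0.822 FPKM in corticothalamic neurons (2.74). The layer 4 factor gene Rorb was 7.56 against 1.21 FPKM (1.95) and its relative Rora 2.77 against 0.0711 FPKM (1.82), both low in absolute level. Hes1, a Notch target gene, was 6.83 against 0.975 FPKM (1.99) and was highest in subcerebral neurons at 13.5 FPKM.

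Within several families, members stood on opposite sides. Of 5 Groucho corepressors past the rule, Tle3 and Tle1 (14.4 against 1.32 FPKM, 2.73) were on the callosal side and Tle4 (-6.12) on the corticothalamic side. The kinesin gene Kif26b was 16 FPKM in callosal and 1.73 FPKM in corticothalamic neurons (2.64), opposite to Kif26a. Mdga2 was 13 FPKM in corticothalamic and 5.16 FPKM in callosal neurons (-1.18), opposite to Mdga1 (3.54). Synaptotagmins did the same: Syt4, which is on dense-core vesicles, was 264 FPKM in callosal, 24.6 FPKM in corticothalamic and 304 FPKM in subcerebral neurons (3.37). The vesicular glutamate transporter genes also differed, Slc17a6 (VGLUT2) with 21.2 FPKM in callosal and 0.704 FPKM in corticothalamic neurons (3.70), and Slc17a7 (VGLUT1) with 40.5 against 81.6 FPKM (-0.99), just short of the line.

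**Figure D3:**
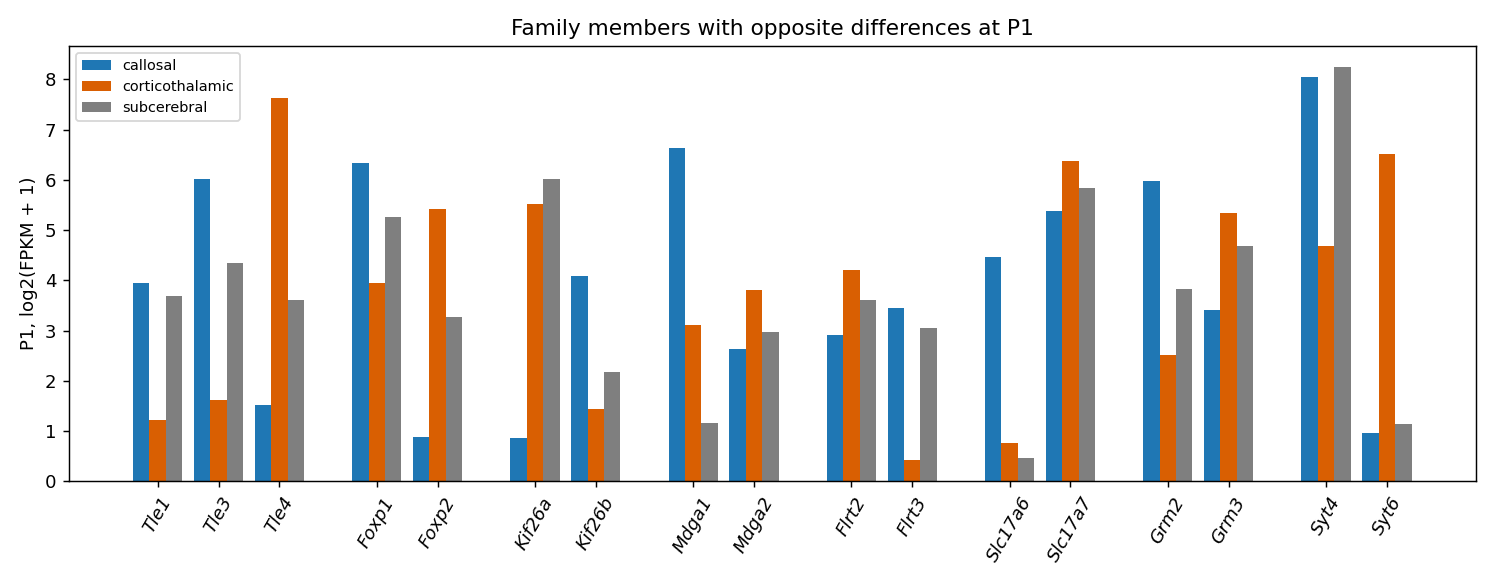
Levels at P1, as log2(FPKM + 1), of members of 8 gene families in callosal, corticothalamic and subcerebral neurons. Each bar is the authors' single value for a group. Tle3 is highest in callosal and Tle4 in corticothalamic neurons, and the pairs Kif26a and Kif26b, Foxp1 and Foxp2, and Grm2 and Grm3 also stand on opposite sides between these cell types.

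Among axon guidance genes, ligands and receptors both had called members. For netrins, slits and their receptors the called share was 50%, beside 8.66% of all genes. Netrins steer axons through Dcc, neogenin and Unc5 receptors, and slits repel them through Robo receptors. Of 20 genes of these pathways past the rule, 5 were at least 2-fold higher in each cell type. The repulsive netrin receptor gene Unc5c was 22.1 FPKM in callosal and 1.94 FPKM in corticothalamic neurons (2.97), and neogenin (Neo1) 149 against 28.7 FPKM (2.34). Flrt3, a ligand of Unc5 receptors, was 9.88 against 0.342 FPKM (3.02), while its relative Flrt2 was 17.4 FPKM in corticothalamic and 6.54 FPKM in callosal neurons (-1.29). Slit1 was 36.8 FPKM in corticothalamic and 6.97 FPKM in callosal neurons (-2.24), and the adhesion receptor gene Dscaml1 25 against 1.30 FPKM (-3.50). Ligand genes (Flrt3 and Slit1) and receptor genes (Unc5c and Dscaml1) were thus each found on both sides.

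Semaphorins guide axons through plexin and neuropilin receptors. Called shares were 17.6% of semaphorins and 33.3% of plexins and neuropilins, beside 8.66% of all genes. Of 17 semaphorins past the rule, 1 was higher in callosal and 2 in corticothalamic neurons: Sema7a, a membrane-anchored semaphorin gene, was 175 against 75.6 FPKM (1.20), Sema6a 2.45 against 12.1 FPKM (-1.92) and Sema5a 0.311 against 1.97 FPKM (-1.18). Of 9 plexins and neuropilins past the rule, Plxnd1 was 41.7 FPKM in callosal and 4.55 FPKM in corticothalamic neurons (2.95), and Plxna4 45.1 against 7.42 FPKM (2.45). Plxna2 was 98.0 FPKM in corticothalamic and 41.5 FPKM in callosal neurons (-1.22).

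Beside 8.66% of all genes, 28.6% of ephrins and 30% of Eph receptors past the rule were called. Of 7 ephrins past the rule, Efnb2 (74.3 against 15.9 FPKM, 2.16) and Efnb1 (17.0 against 7.99 FPKM, 1.00) were higher in callosal neurons. Efnb1 lay on the line and was under it with median-ratio scaling (0.99), quantile normalization (0.996) and a pseudocount of 5 (0.76). Ephb1, a receptor for ephrin-B ligands, was 90.2 FPKM in corticothalamic, 83.7 FPKM in subcerebral and 11.9 FPKM in callosal neurons (-2.82). The ephrin-B ligand Efnb2 and the receptor gene Ephb1 were thus on opposite sides. Epha8 was 17.5 against 3.97 FPKM in favour of callosal neurons (1.90).

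Genes of the TGF-beta, activin and BMP list, which holds ligands, inhibitors and receptors, were called more often in callosal neurons. Its called share was 57.1%, beside 8.66% of all genes. Activins and BMPs bind serine-threonine kinase receptors, and follistatin and noggin hold the ligands in inactive complexes. Of 21 such genes past the rule, 10 were at least 2-fold higher in callosal and 2 in corticothalamic neurons, against 5 and 1 with a pseudocount of 5. Besides Inhba these included the subunit gene Inhbb (9.96 against 2.18 FPKM, 1.78), the inhibitor gene follistatin (Fst, 17.5 against 0.496 FPKM, 3.63) and the receptor genes Acvr1 (73.7 against 22.0 FPKM, 1.70) and Tgfbr1 (82.4 against 29.1 FPKM, 1.47). Ligand, inhibitor and receptor genes were thus all among the callosal ones. The exceptions were Gdf10 (19.9 FPKM in corticothalamic and 1.02 FPKM in callosal neurons, -3.38) and Bmp3 (3.77 against 0.684 FPKM, -1.50). Of 23 Wnt pathway genes past the rule, 3 were higher in corticothalamic neurons, Wnt7b, Wnt4 and Rspo3, and 1 in callosal neurons, the receptor gene Fzd8. That is a called share of 17.4%.

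Growth factor and receptor genes were split. Ntrk3, the neurotrophin 3 receptor gene, was 91.6 FPKM in corticothalamic and 29.8 FPKM in callosal neurons (-1.59), whereas its ligand gene Ntf3 was 2.11 FPKM in callosal and 0.115 FPKM in corticothalamic neurons (1.48). Midkine (Mdk), the relative of pleiotrophin, was 34.8 against 9.26 FPKM in favour of callosal neurons (1.80). The insulin-like growth factor binding protein genes divided, with Igfbp3 at 31.6 FPKM in corticothalamic and 1.37 FPKM in callosal neurons (-3.78), and Igfbp5 at 11.6 and 41.5 FPKM (1.76).

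Receptors for amines, acetylcholine and peptides were called on both sides. The called share was 38.9% of the amine and acetylcholine list and 42.1% of the peptide list, beside 8.66% of all genes. Of 18 amine and acetylcholine receptor genes past the rule, 5 were higher in corticothalamic and 2 in callosal neurons. The dopamine D1 receptor gene Drd1a was 20.4 FPKM in corticothalamic and 2.21 FPKM in callosal neurons (-2.74), the serotonin receptor gene Htr1f 5.34 against 0.0882 FPKM (-2.54) and the adrenergic receptor gene Adra2a 9.12 against 1.60 FPKM (-1.96). The muscarinic receptor genes Chrm1 (8.52 against 2.65 FPKM, 1.38) and Chrm2 (1.20 against 0.0444 FPKM, 1.07) were higher in callosal neurons. Drd1a and Ppp1r1b, whose products act in the same dopamine pathway, were thus both on the corticothalamic side. The somatostatin receptor gene Sstr1 was 14.9 FPKM in callosal and 1.57 FPKM in corticothalamic neurons (2.63), and Npy1r 12.3 against 2.16 FPKM (2.07), in a list of 19 peptide and peptide receptor genes past the rule with 4 called in each direction.

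Adhesion and matrix genes were called on both sides. The called share was 54.5% of cadherins and protocadherins and 50% of matrix and integrin genes, beside 8.66% of all genes. Of 22 cadherins and protocadherins past the rule, 9 were higher in callosal and 3 in corticothalamic neurons, beside a median of -0.17. Pcdh8 was 42.5 FPKM in callosal and 2.66 FPKM in corticothalamic neurons (3.57), Pcdh20 6.84 against 0.257 FPKM (2.64) and Cdh20 5.92 against 0.241 FPKM (2.48). Cdh9 was 26.3 FPKM in corticothalamic and 1.54 FPKM in callosal neurons (-3.43), Cdh18 16.1 against 1.43 FPKM (-2.81) and Cdh11 28.4 against 11.9 FPKM (-1.19). The callosal genes Pcdh8 and Cdh20 were also present in subcerebral neurons (34.1 and 6 FPKM), whereas Cdh9 was at 0.448 FPKM there.

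Of 26 matrix and integrin genes past the rule, 8 were higher in corticothalamic and 5 in callosal neurons. The collagen genes Col5a1 (16.6 against 0.270 FPKM) and Col23a1 (11.9 against 0.715 FPKM), the proteoglycan gene Podn (28.3 against 0.522 FPKM) and the metalloproteinase inhibitor gene Timp3 (39.9 against 4.97 FPKM) were corticothalamic. Vcan, the versican gene, was 111 against 17.0 FPKM on the same side. Fibronectin (Fn1), at 17.0 FPKM in callosal and 0.623 FPKM in corticothalamic neurons (3.48), and the laminin gene Lamb1, at 12.3 against 2.85 FPKM (1.79), were callosal. The collagen genes were thus on the other side from fibronectin and laminin.

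Beside 8.66% of all genes, 29.2% of contactin, L1 family and IgLON genes and 28.1% of synaptic organizers were called. Of 24 contactin, L1 family and IgLON genes past the rule, 5 were higher in callosal neurons, led by Mdga1, and 2 in corticothalamic neurons, Islr2 and Mdga2. Kirrel3, an immunoglobulin-family adhesion gene, was 28.8 FPKM in callosal, 6.02 FPKM in corticothalamic and 37.1 FPKM in subcerebral neurons (2.09). Of 32 synaptic organizers past the rule, 4 were higher in callosal and 5 in corticothalamic neurons. Cbln1, a cerebellin that bridges neurexins to a postsynaptic receptor, was 42.1 against 12.8 FPKM in favour of callosal neurons (1.65), and the leucine-rich synaptic gene Lrrtm4 was 14.6 FPKM in corticothalamic and 2.42 FPKM in callosal neurons (-2.19). Nxph1, Nxph3 and Nxph4, the neurexophilins called, were all on the corticothalamic side.

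Synapse and channel genes had called members on both sides, beside the 8.66% called among all genes. The called share was 44% of glutamate receptor genes and 38.9% of GABA and glycine receptor and chloride transporter genes. It was 30.6% of potassium channel genes and 15.2% of sodium, calcium and HCN channel genes. Of 25 glutamate receptor genes past the rule, 8 were higher in corticothalamic neurons, among them Grik3, Grik4, Gria3 and the auxiliary subunit genes Neto1 and Neto2 (117 against 39.1 FPKM). Metabotropic receptors split, with Grm3 at 39.4 FPKM in corticothalamic and 9.68 FPKM in callosal neurons (-1.92), Grm2 at 4.72 and 61.9 FPKM (3.46) and Grm7 at 2.53 and 18.3 FPKM (2.45). Of 18 genes for GABA and glycine receptors and chloride transporters, 5 were higher in callosal and 2 in corticothalamic neurons. Gabra2 was 15.1 FPKM in callosal and 0.918 FPKM in corticothalamic neurons (3.07), and Gabra4 7.59 against 0.473 FPKM (2.54).

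Of 49 potassium channel genes, 7 were higher in callosal and 8 in corticothalamic neurons, with a median of 0.06. Kcnh1, an ether-a-go-go channel gene, was 19.8 FPKM in callosal and 1.69 FPKM in corticothalamic neurons (2.95), and Kcnj2, an inward rectifier, 8.06 against 0.312 FPKM (2.79). The auxiliary subunit genes Kcnab1 (35.1 against 3.30 FPKM, -3.07) and Kcnip2 (39.7 against 4.05 FPKM, -3.01) were corticothalamic. Of 33 sodium, calcium and HCN channel genes, 3 were callosal, including Cacna1i (11.4 against 2.68 FPKM, 1.75), and 2 corticothalamic. Scn3b (157 FPKM in corticothalamic, 76.6 FPKM in callosal neurons) was 1 of the latter, at -1.03, and was just short of the line with quantile normalization (-0.995). With that normalization this list had 4 callosal and 0 corticothalamic calls.

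Called shares were 26.8% of vesicle and release genes, 36% of calcium sensors and calmodulin kinases and 50% of RGS proteins, beside 8.66% of all genes. Of 41 synaptic vesicle and release genes past the rule, 7 were higher in corticothalamic and 4 in callosal neurons. Snap25, a core gene of vesicle fusion, was 187 FPKM in corticothalamic and 87.1 FPKM in callosal neurons (-1.09). Calcium sensors and calmodulin kinases had 8 of 25 on the corticothalamic side and 1, Camkk2, on the callosal side. These counts were 6 and 1 with quantile normalization, and 5 and 0 with a pseudocount of 5. RGS proteins, which speed up the turn-off of G-protein signals, had 6 of 14 on the corticothalamic side, with Rgs8 at 17.6 against 1.5 FPKM (-2.90) and Rgs16 at 19.0 against 2.39 FPKM (-2.56). The exception was Rgs3, at 15.8 FPKM in callosal and 2.13 FPKM in corticothalamic neurons (2.43).

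Lists of general cell functions lay on both sides of the 8.66% called among all genes. Of 24 cholesterol synthesis genes 0 were 2-fold apart, and their differences ran from -0.36 to 0.81 with a median of 0.21. Of 38 kinesin and microtubule genes, 2 were callosal and 3 corticothalamic. Immediate early genes, which report recent activity or handling, had 1 of 16 called, the AP-1 gene Fosl2 with 12.4 FPKM in callosal and 2.55 FPKM in corticothalamic neurons (1.92). Of 12 retinoic acid and thyroid hormone genes past the rule 2 were corticothalamic, Crym and the retinaldehyde dehydrogenase gene Aldh1a1 (2.78 against 0.242 FPKM, -1.61). The other 15 immediate early genes lay within 2-fold, with a median of -0.26 for the list.

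Most differences at P1 had the same direction at earlier stages in other libraries, while fewer were at least 2-fold there. Of the 576 genes higher in corticothalamic neurons at P1, 566 (98.3%) had the same direction at E18, 544 (94.4%) at E16 and 499 (86.6%) at E15, and 245 were at least 2-fold the same way at all 3. Of the 575 genes higher in callosal neurons, 563 (97.9%) had the same direction at E18, 508 (88.3%) at E16 and 433 (75.3%) at E15, and 160 were at least 2-fold at all 3. Their median difference was 1.48 at P1, 1.24 at E18, 0.96 at E16 and 0.51 at E15. For the corticothalamic genes it was -1.46, -1.40, -1.18 and -0.95. At least 2-fold the same way were 63.8% of the callosal genes at E18, 47% at E16 and 32.2% at E15. Of the corticothalamic genes the shares were 71.2%, 57.6% and 47.6%. Among all genes at 1 FPKM or more at the stage, 7.63% (E18), 8.27% (E16) and 8.95% (E15) were 2-fold apart either way. How often genes not called at P1 kept their direction is not given here. The called genes were chosen by their P1 value, so a smaller median at other stages is in part set by that choice. By the same 2-fold line applied at each stage, callosal genes numbered 449, 450, 456 and 575 from E15 to P1, and corticothalamic genes 714, 641, 558 and 576.

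Of the callosal genes, 178 were under 2-fold at all 3 earlier stages, and of the corticothalamic genes 138. Others passed 2-fold first at E16 or E18. Ctgf in corticothalamic neurons was 0.485 FPKM at E15, 0.743 FPKM at E16, 4.38 FPKM at E18 and 30.9 FPKM at P1, while it stayed at or under 0.683 FPKM in callosal neurons. Gpc5, a glypican gene, was 0.0168 FPKM at E15, 0.0834 FPKM at E16, 1.86 FPKM at E18 and 12.1 FPKM at P1 in callosal neurons, and at most 0.346 FPKM in corticothalamic neurons. Both genes were thus almost silent at E15 in both cell types. Hspb3 in callosal neurons was 0.147 FPKM at E15, 3.80 FPKM at E16, 16 FPKM at E18 and 34.2 FPKM at P1.

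Of the genes called at P1, 32 callosal and 19 corticothalamic ones were at least 2-fold apart the other way at 1 or more earlier stages, 27 and 17 of them at E15. Plxnd1 was 2.45 FPKM in callosal and 11.9 FPKM in corticothalamic neurons at E15 (-1.90), and 41.7 and 4.55 FPKM at P1 (2.95). Rasgrf2, a Ras exchange factor gene, was 0.143 and 1.72 FPKM at E15 and 28.5 and 3.52 FPKM at P1. Fosl2 was 1.23 and 15.5 FPKM at E15 and 12.4 and 2.55 FPKM at P1. In each case the callosal level was higher at P1 than at E15. The corticothalamic level of Plxnd1 and Fosl2 was lower at P1 than at E15, and that of Rasgrf2 was higher. Rprm moved toward equality, with differences of -3.89 at E15 and -1.005 at P1. These stage patterns also hold any difference in collection, preparation or sequencing between stages, which cannot be told apart from age.

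**Figure D4:**
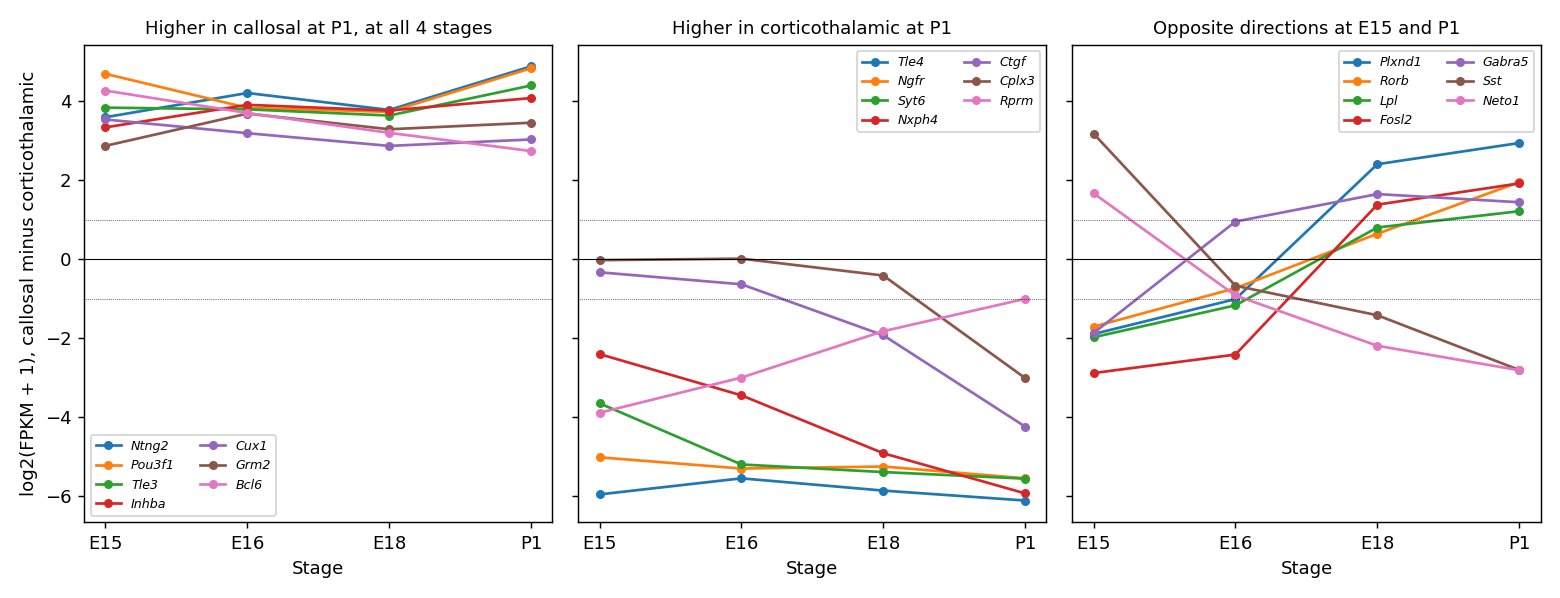
Log2 difference between callosal and corticothalamic neurons at E15, E16, E18 and P1 for 3 sets of genes, with positive values higher in callosal neurons and dotted lines at 2-fold. Each point is the difference of 2 single values. Ntng2 and Tle4 keep their side at all stages, Ctgf and Cplx3 leave 0 late, and Plxnd1, Rorb and Sst cross from one side to the other.

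Microglia and interneuron markers past the rule were called in larger shares (80% and 66.7%) than all genes (8.66%). Of 10 microglia and macrophage markers past the rule, 8 were at least 2-fold higher in callosal neurons at P1, each at no more than 2.86 FPKM there, with C1qa at 2.78 against 0.0498 FPKM and Csf1r at 2.86 against 0.0926 FPKM. The 14 listed markers summed to 26.8 FPKM in callosal and 8.82 FPKM in corticothalamic neurons at P1, and 1 of them was listed at 0 in the latter. In callosal neurons the sum ran from 13.2 FPKM (E15) to 54.4 FPKM (E16), in corticothalamic neurons from 8.82 to 15.5 FPKM. The 8 called markers passed the rule through the callosal column alone, so their count is in part set by the rule. With a pseudocount of 5 or a filter of 5 FPKM, 0 microglial markers were called. Their part in the callosal results was not tested.

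Of 9 interneuron markers past the rule, 6 were at least 2-fold higher in corticothalamic neurons at P1 and 0 in callosal neurons, and none of the 14 was listed at 0 in either. With a pseudocount of 5 or a filter of 5 FPKM, 1 was called. Gad1 was 1.93 against 0.268 FPKM, the interneuron factor gene Lhx6 3.00 against 0.246 FPKM and the somatostatin gene Sst 18.4 against 1.76 FPKM. At E15 the same genes were on the callosal side, with log2 differences of 2.05, 2.71 and 3.18. At P1, Gad1 and Lhx6 passed the rule through the corticothalamic column alone. The 14 markers summed to 720 FPKM in corticothalamic and 400 FPKM in callosal neurons at P1, of which Npy made up 687 and 394 FPKM. Without Npy, left out after its level was seen, the sums were 33.4 and 5.57 FPKM at P1, and 10.7 and 78.4 FPKM at E15. Other genes with this switch of side were Nxph1 (-1.69 at P1, 2.22 at E15), Reln (-1.44, 1.78) and Neto1 (-2.81, 1.67). The part of interneuron RNA in these differences was not tested.

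The remaining marker lists had few called members. Astrocyte and radial glia, progenitor and cell cycle, oligodendrocyte, vascular and red blood cell markers had 0 members at least 2-fold apart, of 6, 4, 5, 1 and 1 past the rule. Their sums at P1 in callosal and corticothalamic neurons were 32.7 and 27.9 FPKM for astrocyte and radial glia markers, 20.7 and 16.4 FPKM for the oligodendrocyte lineage, and 3.22 and 4.02 FPKM for vascular cells. Progenitor and cell cycle markers summed to 55.0 and 64.8 FPKM, and red blood cell markers to 2.42 and 5.23 FPKM. With median-ratio scaling or quantile normalization, 1 astrocyte and radial glia marker was called on the corticothalamic side. Cajal-Retzius markers had 1 of 4 called, Reln, on the corticothalamic side.

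**Figure D5:**
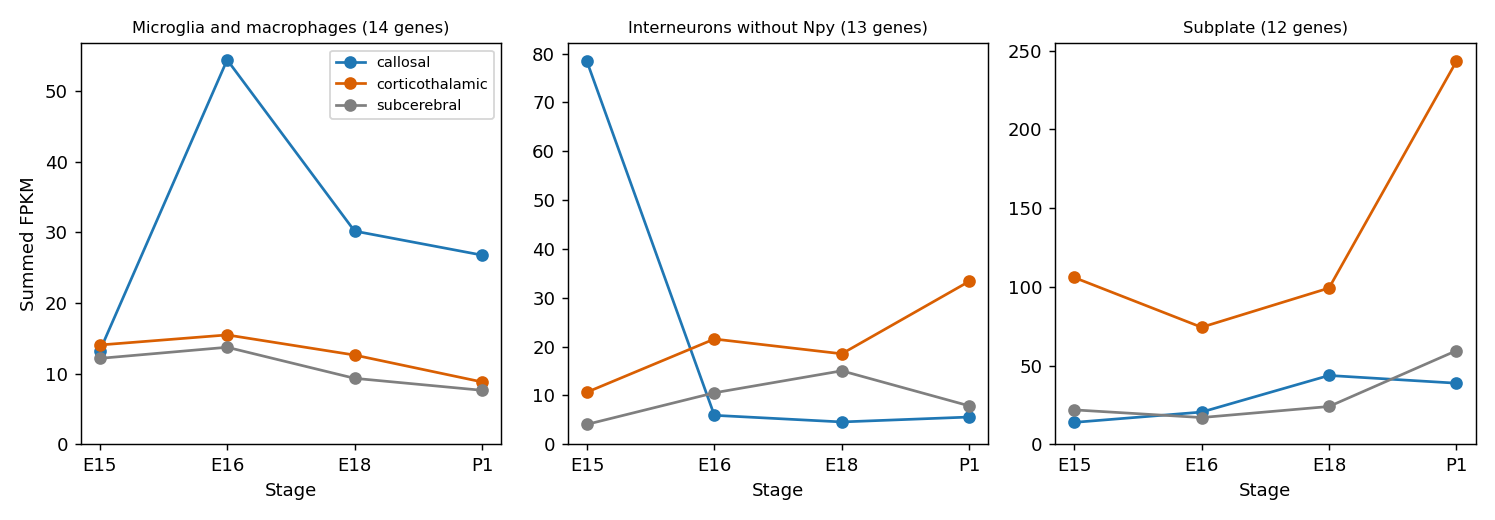
Summed FPKM of microglia and macrophage markers, of interneuron markers without Npy and of subplate genes at each stage in callosal, corticothalamic and subcerebral neurons; the number of genes is in each title and each point is the sum over 1 value per gene. At P1 the microglial sum is highest in callosal neurons (26.8 FPKM), and the interneuron (33.4 FPKM) and subplate (243 FPKM) sums are highest in corticothalamic neurons. Nxph4 makes up 109 FPKM of that subplate sum.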

How the data were processed

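The submitters sorted the cells, and per the labels' protocols made poly(A)-selected libraries from 200 ng of RNA from about 100000 cells, with integrity numbers of 6.3 to 9. The authors made the deposited FPKM values with TopHat2 and Cufflinks on mm9, per the submitters' processing notes. For versions, annotation and how replicate libraries became 1 value, nothing is stated in the sources used here. The table names no unit, and FPKM was read from the use of Cufflinks and the range of the values. It was parsed from the right, since 25 entry names hold spaces. With Python 3.11.15, pandas 2.3.3 and numpy 2.4.6, log2(FPKM + 1) was taken and the P1 corticothalamic value subtracted from the P1 callosal value, for entries of at least 1 FPKM in either. The calculation was tested on simulated data.

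Genes were named by rule: 15 per direction by size, 3 per direction and list, and 8 per direction whose P1 difference departed most from the mean of the earlier stages, with 4 marker genes; others were chosen for their known role. The genes compared and the 40 lists were chosen with earlier results of these data known. Of 869 listed genes, 865 were found, 7 of them under another symbol in RefSeq's GRCm38.p6 gene list, and 683 passed the 1 FPKM rule. The alternatives were other pseudocounts, filters and scalings. Results for 3 genes of the lists are not reported here, though the counts include them.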

Additional observations from a re-analysis of the deposited data

Results flagged for a closer look

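The 23 named or listed genes below, with values above 0 at the stages compared, were each at least 2-fold apart at P1 and at least 2-fold apart the other way at an earlier stage. Stage is confounded with any difference between preparations, each value is single, and the difference between stages was not tested. The log2 differences below are callosal minus corticothalamic.

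At E15, but at E16 for 3930401K13Rik and Pcdh19, these genes were higher in corticothalamic neurons, and at P1 in callosal neurons. Among regulators and signalling genes, Fosl2 went from -2.89 to 1.92, the layer 4 factor gene Rorb from -1.71 to 1.95, Rasgrf2 from -1.25 to 2.71, the BMP inhibitor gene Nog from -1.23 to 1.16, and Lpl from -1.98 to 1.22. Among guidance and adhesion genes, Plxnd1 went from -1.90 to 2.95, Epha4 from -1.06 to 1.64, the protocadherin gene Pcdh19 from -1.03 to 1.09, Nrcam of the L1 family from -1.70 to 1.01, and the synaptic adhesion gene Slitrk2 from -1.26 to 1.20. Among receptors and channels, the GABA receptor genes Gabra5 and Gabrb1 went from -1.87 to 1.44 and from -1.14 to 1.63, and the calcium channel gene Cacna1i from -1.34 to 1.75. The unannotated gene 3930401K13Rik went from -1.76 to 2.44.

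In the opposite order, higher in callosal neurons at E15 and in corticothalamic neurons at P1, stood 5 interneuron markers. Sst went from 3.18 to -2.81, Lhx6 from 2.71 to -1.68, Dlx1 from 2.50 to -1.29, Gad1 from 2.05 to -1.21 and the vesicular GABA transporter gene Slc32a1 from 1.42 to -1.06. Nxph1 went from 2.22 to -1.69, Reln from 1.78 to -1.44, Neto1 from 1.67 to -2.81 and the calcium channel subunit gene Cacna2d2 from 1.13 to -1.001. The P1 call of Cacna2d2 was lost with median-ratio scaling (-0.995), quantile normalization (-0.997) and a pseudocount of 5 (-0.33), and that of Nrcam with the same settings (0.999, 0.95 and 0.85). The summed interneuron markers without Npy were 78.4 FPKM in callosal and 10.7 FPKM in corticothalamic neurons at E15, and 5.57 and 33.4 FPKM at P1, and their part in the other genes' values was not tested.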

How the results depend on the processing

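With 1 value per group, results could be recomputed only with other settings, and leaving out a library was not possible. No paired analysis was possible because the columns carry no replicate numbers. A pseudocount of 5 in place of 1 gave 249 callosal and 279 corticothalamic calls, 429 with the same direction at E15, E16 and E18 and 203 at least 2-fold at all 3, against 575, 576, 911 and 405. With a pseudocount of 0.1, 694 were at least 2-fold at all 3. The other counts over all genes stayed within 1.5 times under these settings. So did those with a filter of 5 FPKM, median-ratio scaling (562 and 579 calls) and quantile normalization (577 and 574 calls). Dropping the filter cannot change a count, since a 2-fold difference on this scale needs at least 1 FPKM in the higher column. Of the 697 genes followed singly, 96 fell under 2-fold with the pseudocount of 5, 4 with median-ratio scaling and 7 with quantile normalization. A pseudocount or filter cannot change the sign of a difference, so signs under those settings are no check. The median difference of all genes lay between -0.02 and 0.00 under all settings. Chosen after seeing the data, leaving out microRNA and small nucleolar RNA entries gave 568 and 571 calls, and leaving out entries listed at 0 gave 563 and 566. Without E15, 1047 genes had the same direction at E16 and E18, and 570 were at least 2-fold at both. Counts within the gene lists moved more. Of 76 counts by list and direction, 29 moved by over 1.5 times with the pseudocount of 5 and 18 with that of 0.1. The filter of 5 FPKM moved 13, and median-ratio scaling and quantile normalization 3 each. Dropping the filter could not move any. With the filter of 5 FPKM, and with the pseudocount of 5, interneuron calls went from 6 to 1, microglial calls from 8 to 0, corticothalamic Wnt calls from 3 to 1 and callosal netrin and slit calls from 5 to 3. The list medians of cadherins (-0.17) and potassium channels (0.06) changed sign with that filter (0.09 and -0.04). So did those of microglial markers (1.30 to -0.21), matrix and integrin genes (0.17 to -0.22) and Wnt genes (-0.04 to 0.17). The medians of plexins and neuropilins (-0.05 to 0.09) and of glutamate receptors (0.11 to -0.01) changed sign too. The depth behind the values is unknown, so differences between low values, such as those of Rora, Chrm2 and the microglial markers, have no known counting error.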

Other observations

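Several abundant genes outside the lists also differed at least 2-fold at P1, and were chosen for their level after their values were seen. Higher in corticothalamic neurons were Sez6, a seizure-related membrane protein gene (542 against 230 FPKM), Ndn, the necdin gene (411 against 203 FPKM), Dync1i1, a dynein intermediate chain gene (343 against 147 FPKM), Olfm1 (323 against 148 FPKM) and Chgb, the chromogranin B gene of dense-core granules (267 against 73.5 FPKM). Higher in callosal neurons were H2afz, a histone variant gene (301 against 113 FPKM), Plk2, a polo-like kinase gene (226 against 89.0 FPKM), Prkar1b, a regulatory subunit gene of protein kinase A (205 against 74.8 FPKM), and Dok4, a docking protein gene (177 against 53.5 FPKM).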
